A study of Homo sapiens with 6 samples.

Results

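The genes described here encode the proteins of the cytosolic ribosome. They were chosen by symbol alone: RPL or RPS with a number and at most 1 further letter from A, X and L and 1 further digit, together with RPLP0, RPLP1, RPLP2, RPSA and FAU, without RPS27L, the ribosomal S6 kinases and pseudogenes. This gave 83 of the 38900 gene IDs: 42 genes of the large subunit, 32 of the small subunit with FAU and RPSA among them, 3 of the acidic stalk, and 6 duplicated or tissue-restricted paralogs (RPL3L, RPL7L1, RPL10L, RPL22L1, RPL26L1 and RPL39L). RPL7A was not analysed here, and RPL36AL, whose symbol ends in more letters than the rule takes, is given only beside RPL36A.

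PolyA RNA of hTERT RPE1 cells, an established human retinal pigment epithelial line immortalised with telomerase, was sequenced in 6 libraries. All cultures had been held at full confluency for 5 days, a treatment meant to make cells quiescent, and then received fresh medium for 6 hours. In 3 libraries that medium held 100 nM combretastatin A4 (CA4), a tubulin binder that depolymerizes microtubules. The 3 controls received its solvent, DMSO, at 0.1%. All 6 libraries come from 1 cell line. The labels number the libraries of each group 1 to 3 and do not say whether these were separate cultures, so the p-values measure the spread between these libraries.

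Ribosomal proteins assemble with ribosomal RNA into the small subunit, which reads the mRNA, and the large subunit, which joins the amino acids. Their mRNAs are abundant and long-lived in most cells, and they share a 5′ terminal oligopyrimidine tract (5′ TOP), a run of C and T letters that begins with a C at the first base. Through this tract the mTORC1 pathway and the RNA-binding protein LARP1 set how much of each mRNA is translated, so protein output can move while the mRNA level stays where it is. The question put to these data was whether the mRNA levels of the whole group moved with CA4, and how far the answer hangs on the way libraries are scaled to each other.

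The tract can be read in the reference sequence at most of these genes. Start-site windows from RefSeq (GRCh38.p14) matched 66 of the 83 genes. A run of at least 5 letters C or T covered the annotated first base in 45 of them, 68.2%, against 9.60% of all 35116 windows in the table, and the first base was a C in 71.2% against 14.7%. Each sequence printed here holds 10 bases before the annotated start and 20 from it onward, 5′ to 3′ on the gene's strand, with the run that covers the start in capitals. The first 6 are genes with a tract that differ most in role or in their values below, and RPL22L1, RPL26L1 and RPL7L1 are paralogs with and without one.
FAU: tcgCTTCTTCCTCTTTCTCgactccatctt
RPL13A: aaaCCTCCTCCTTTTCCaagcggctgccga
RPS6: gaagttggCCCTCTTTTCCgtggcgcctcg
RPLP0: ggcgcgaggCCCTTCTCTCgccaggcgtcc
RPS12: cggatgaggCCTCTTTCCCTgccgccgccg
RPS9: gcttccgcgCCTCTTTCTCagtgaccgggt
RPL22L1: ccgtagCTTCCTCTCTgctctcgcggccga
RPL26L1: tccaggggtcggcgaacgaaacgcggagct
RPL7L1: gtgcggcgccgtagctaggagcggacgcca

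These windows lie at chr11:65122115-65122144 (FAU, minus strand), chr19:49487598-49487627 (RPL13A, plus), chr9:19380217-19380246 (RPS6, minus), chr12:120201092-120201121 (RPLP0, minus) and chr6:132814559-132814588 (RPS12, plus). Those of RPS9 and RPL22L1 lie at chr19:54200848-54200877 (plus) and chr3:170870176-170870205 (minus). Those of RPL26L1 and RPL7L1 lie at chr5:172958719-172958748 and chr6:42879606-42879635 (both plus). The run over the start was 16 letters long in FAU, 14 in RPL13A, 11 in RPS6 and RPS12, and 10 in RPLP0, RPS9 and RPL22L1. RPL26L1 and RPL7L1 have no such run at their annotated start, and neither have core genes such as RPL10, RPL4 and RPS28. In windows of 250 bases before to 50 after the start, searched on both strands, CCGGAA was found in 56.1% of the 66 genes against 17.2% of all promoters, AAGATGGC in 12.1% against 2.89%, GGGCGG in 53.0% against 45.0% and TATAAA in 9.09% against 11.5%. A match to letters is a description of the reference and not a measured site.

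The levels below are normalized counts: the reads of a gene divided by the scaling factor the authors gave its library. The libraries held 19524936 to 22538004 reads, and 458776 to 572184 of them, 2.35% to 2.71%, fell on ribosomal protein genes. Defining markers of the pigment epithelium were sparse: RPE65 lay between 13.5 and 40.8 normalized counts, and DCT and TTR at 0 in all 6 libraries. OTX2, a transcription factor of this tissue, had 423, 630 and 547 in DMSO and 226, 255 and 251 in CA4, and fell past the test (-1.11, limma adjusted p = 0.0158). MITF lay between 620 and 1085 in DMSO and between 322 and 647 in CA4 (-0.98, limma adjusted p = 0.1). CRX (0.35), PMEL (0.30) and SERPINF1 (0.15) lay above 0 and did not pass, so that 3 of the 7 tested markers were above 0, with a median of -0.032. The sum over the 12 markers of the list, most of it OTX2 and MITF, was 1186 to 1878 in DMSO and 706 to 1096 in CA4, and its part in the results below was not tested. Among epithelial markers KRT8 lay between 14118 and 16502 in all libraries, while KRT18 lay between 8393 and 10397 in DMSO and between 11056 and 14919 in CA4 (0.46, limma adjusted p = 0.0849). KRT19 lay between 0 and 62.6, CDH1 between 0.935 and 32.3 and EPCAM between 0 and 4.46. Of 5 mesenchymal markers CDH2 rose past the test (0.31, limma adjusted p = 0.0452), though not with libraries brought to 1 common total (0.21, limma adjusted p = 0.121). The other 4 did not pass, with COL1A1 at -0.33, VIM at 0.077, COL1A2 at 0.029 and FN1 at 0.24. Of 4 blood markers 3 were at 0 in all 6. Proliferation markers were still read, with MKI67 between 1191 and 4849. All 7 had a fold change below 0 (median -0.28) and 0 were called, where 4.94% of all tested genes were called. Their sums overlapped between groups, 4907 to 11304 in DMSO and 2926 to 9126 in CA4.

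After 6 hours of CA4 no ribosomal protein gene changed past the test. Of the 83 genes, 81 averaged at least 10 normalized counts over the 6 libraries and were tested; RPL3L lay between 0.935 and 3.87 and RPL10L between 0.966 and 13.1, with overlapping groups. In limma's moderated test on log2(normalized count + 1), 0 of 81 rose and 0 fell at an adjusted p of 0.05, where 4.94% of all 13928 tested genes were called, 413 higher and 275 lower. At an unadjusted p under 0.05 there were 2 of 81, RPL26L1 and RPL7L1, or 2.47%, against 23% of all tested genes. edgeR's quasi-likelihood test and DESeq2 on the recovered reads also called 0 of 81, where they called 4.62% and 11.6% of all tested genes. Each had 2 of the 81 at an unadjusted p under 0.05, against 22.7% and 22.6% of all tested genes.

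The fold changes themselves were small. On the log2 scale the median over the 81 genes was 0.0062, with 47 above 0 and 34 below, and the median over all tested genes was -0.0082. The fold changes of ribosomal protein genes had an SD of 0.076, and those of all tested genes 0.541. Of the 81 genes, 76 (93.8%) lay within a 10% change in either direction, against 34.7% of all tested genes and 45.0% of the 3924 tested genes that averaged at least 1000. The median over those 3924 genes was 0.039. The limma interval of a single gene was wider than its fold change: the median of the 95% bounds over the 81 genes ran from -0.17 to 0.19, and for 65 of 81 the whole interval lay within a 20% change. For those 65 genes a change beyond 20% lay outside the interval under the authors' factors. The interval of every tested gene but RPL26L1 and RPL7L1 included 0. Smaller changes in a single one of these other genes were therefore not resolved with 3 libraries a group.

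**Figure D1:**
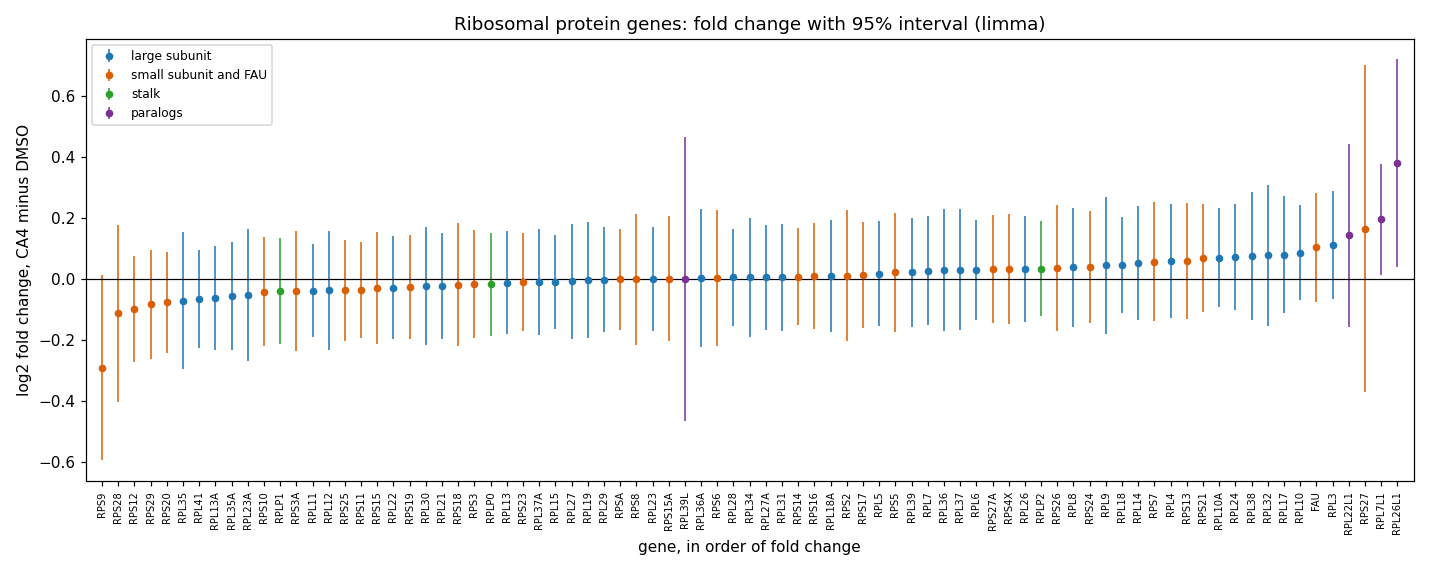
Log2 fold change of each of the 81 tested ribosomal protein genes (CA4 minus DMSO, vertical axis), in order, with limma's 95% interval; colour marks the group of the gene. Of the 81 points, 76 lie within a 10% change, and the outermost are RPS9 at -0.29 and RPL26L1 at 0.38.

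**Figure D2:**
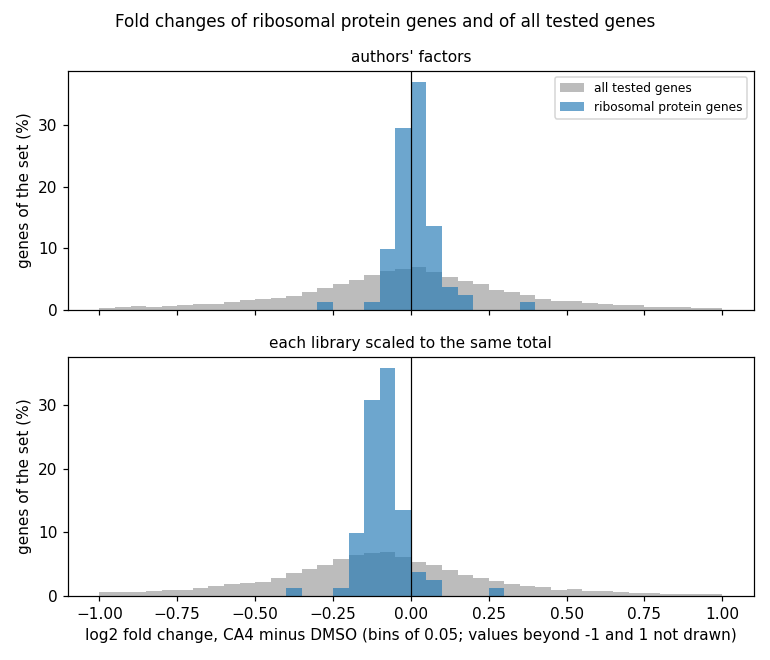
Share of genes (percent) in each bin of log2 fold change, for the 81 ribosomal protein genes and for all 13928 tested genes, under the authors' factors and with all libraries brought to 1 common total. The ribosomal protein genes form a narrow peak in both, around 0.0062 and around -0.095.

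Taken by subunit, the 42 genes of the large subunit had a median log2 fold change of 0.0064, with 26 above 0 and 16 below and a range from -0.071 to 0.11. The 32 genes of the small subunit had a median of 0.00036, 16 above and 16 below, and a wider range from -0.29 to 0.17. The 4 tested paralogs had a median of 0.17 with all 4 above 0, and 3 of 4 above 0 with the libraries brought to 1 common total, where RPL39L lay at -0.099.

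RPL3, a core protein of the large subunit close to the peptidyl transferase centre and among the genes with the most normalized counts, had 20550, 21321 and 19745 normalized counts in DMSO and 22108, 21105 and 23356 in CA4. One CA4 library fell inside the DMSO range. The log2 difference of the groups was 0.11 (SE 0.076, limma adjusted p = 0.433). RPL13A, a large-subunit protein also known for a role outside the ribosome in translational control, lay at 20417, 21656 and 20215 in DMSO and at 19251, 19654 and 20799 in CA4, and its groups overlapped. RPL4 lay between 15014 and 16866 in DMSO and between 15657 and 17240 in CA4.

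RPL10, which is placed late in the assembly of the large subunit and completes its active site, had 12971, 12661 and 12449 normalized counts in DMSO and 13544, 13168 and 13713 in CA4. All 3 CA4 libraries lay above the 3 DMSO libraries, by 0.086 on the log2 scale (SE 0.066, limma adjusted p = 0.488). RPL41, the shortest ribosomal protein, had 11631, 10784 and 10838 in DMSO and 10647, 10638 and 10463 in CA4, so the CA4 libraries lay lower without overlap (-0.066, SE 0.069, limma adjusted p = 0.618). Groups failed to overlap in 9 of 81 genes, 4 with CA4 above (RPL10, RPL26L1, RPL7L1 and RPS21) and 5 with CA4 below (RPL11, RPL41, RPS12, RPS29 and RPS9), against 27.7% of all tested genes. That is 11.1% of the ribosomal protein genes. RPL17 (0.080) was among the higher values and RPL35 (-0.071) among the lower ones, both with overlapping groups.

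In the small subunit the lowest fold change belonged to RPS9, a protein that contacts the mRNA entry region, whose level per length was far below that of most core genes. RPS9 had 564, 496 and 441 normalized counts in DMSO and 424, 427 and 371 in CA4. All CA4 libraries lay below all DMSO libraries, at a log2 difference of -0.29 (SE 0.13, limma adjusted p = 0.238). RPS12 had 5696, 5752 and 5912 in DMSO and 5060, 5482 and 5692 in CA4, which is -0.098 on the log2 scale (SE 0.075, limma adjusted p = 0.48). Its highest CA4 library lay just under its lowest DMSO library. RPS29 gave -0.083 and RPS20 -0.076. RPS28 gave -0.11 with overlapping groups, at 2224, 2428 and 2223 in DMSO and 1778, 2174 and 2460 in CA4.

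RPS27 had the highest value of the small subunit, 0.17, but on few reads: 76.3, 67.3 and 77.9 normalized counts in DMSO and 106, 67.3 and 79.1 in CA4. One CA4 library lay above all others, the remaining libraries overlapped, and the interval ran from -0.37 to 0.70. RPS2, with the most normalized counts of this subunit, lay between 16037 and 18774 in DMSO and between 16034 and 18266 in CA4. RPS6, the protein that S6 kinases phosphorylate, had 11928, 9990 and 9854 normalized counts in DMSO and 11079, 9985 and 10697 in CA4, a log2 fold change of 0.0037 (SE 0.096). RPSA, which also serves as a laminin receptor, lay between 9637 and 10673 in DMSO and between 10056 and 10242 in CA4.

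FAU and RPS27A are made as fusions, FAU with a ubiquitin-like protein and RPS27A with ubiquitin. FAU had 2001, 1886 and 1862 normalized counts in DMSO and 2069, 1978 and 2132 in CA4, 0.10 on the log2 scale (SE 0.077, limma adjusted p = 0.468), and 1 CA4 library lay inside the DMSO range. RPS27A gave 0.033 with overlapping groups. The stalk proteins, which recruit translation factors to the large subunit, were as flat: RPLP0, the gene of the set with the most normalized counts in DMSO, had 22088, 20822 and 20039 in DMSO and 20710, 20404 and 21063 in CA4 (-0.017), and RPLP1 and RPLP2 gave -0.039 and 0.035.

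The paralogs RPL26L1 and RPL7L1 had the highest fold changes of the 81 genes, neither past the test. RPL26L1, a near-copy of RPL26, had 373, 281 and 283 normalized counts in DMSO and 433, 387 and 391 in CA4. The groups did not overlap, and the log2 fold change was 0.38 (SE 0.15, limma adjusted p = 0.177). RPL26 itself lay at 4604, 4193 and 4439 in DMSO and at 4557, 4332 and 4660 in CA4, a log2 fold change of 0.034.

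RPL7L1, a relative of RPL7 known as a factor of large-subunit assembly, had 2930, 2600 and 2818 normalized counts in DMSO and 3123, 3155 and 3275 in CA4. Again every CA4 library lay above every DMSO library, by 0.20 on the log2 scale (SE 0.078, limma adjusted p = 0.187), while RPL7 gave 0.027. RPL22L1 gave 0.14 (SE 0.13, limma adjusted p = 0.558) with overlapping groups, beside -0.028 for RPL22. RPL39L gave 0.0018 with the widest interval of the 4, from -0.46 to 0.47, beside 0.022 for RPL39. RPL36AL, outside the rule, had 1668, 1508 and 1468 in DMSO and 1901, 1764 and 1835 in CA4, 0.25 on the log2 scale (SE 0.085, limma adjusted p = 0.142) without overlap, and its partner RPL36A gave 0.0031. The difference between a paralog and its partner was not tested.

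**Figure D3:**
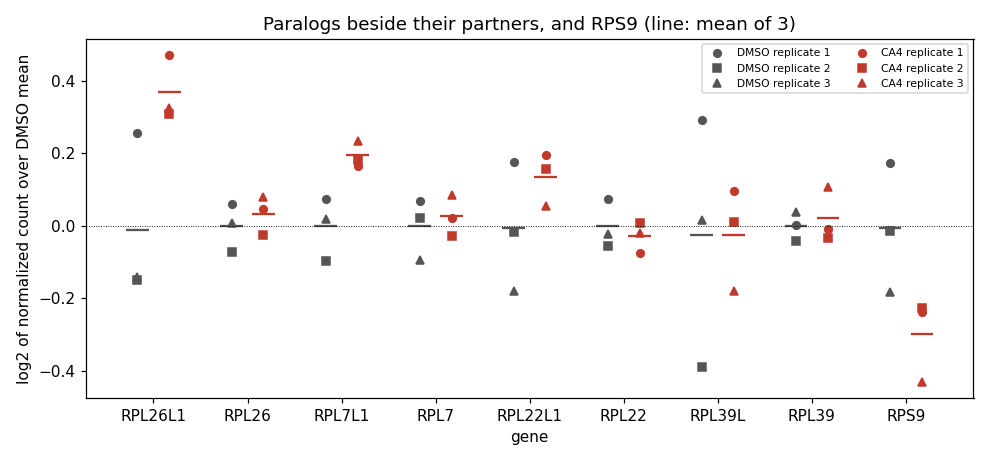
Normalized counts of the 4 tested paralogs, each beside its partner, and of RPS9, as log2 over the gene's DMSO mean; each symbol is 1 library and each line the mean of 3. RPL26L1 and RPL7L1 have all 3 CA4 libraries above the 3 DMSO libraries, and RPS9 has them below.

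Levels were compared between genes per kilobase of coding sequence. Without the paralogs, the middle of the set spanned 9609 to 15298 normalized counts per kilobase in DMSO (lower and upper quartile, 77 genes), with a median of 12008 in DMSO and 11797 in CA4. RPL13A, at 34093, and RPLP0, at 22064, lay above this range, and RPL41, whose coding sequence has only 75 bases, stood at 147789. RPS27, at 293, and RPS9, at 859, lay far below every other core gene, and the paralogs RPL26L1 (718), RPL22L1 (982), RPL39L (1288) and RPL7L1 (3638) lay below their partners RPL26 (10143), RPL22 (12032), RPL39 (16861) and RPL7 (15346).

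Ribosomal protein genes have many processed pseudogenes, so reads can be credited to the wrong row. Of the words of 50 bases in the coding sequences, a median of 48.5% per gene also occurred in another gene of the GENCODE 29 annotation, and for 9 of 83 genes, RPS27, RPL41 and RPL39 among them, all words did. The 1589 pseudogene rows together held 2.29% of the total of the ribosomal protein genes in DMSO and 2.35% in CA4, and only 22 had a mean of at least 10. For 5 genes the row of a copy or readthrough gene was added: the log2 ratio of CA4 to DMSO was 0.016 for RPS2 with RPS2P5, 0.00058 for RPL23A with RPL23AP42, -0.093 for RPS28 with RPS28P7, 0.071 for RPL17 with its readthrough gene RPL17-C18orf32 and -0.046 for RPS10 with RPS10-NUDT3. Other genes with large sharing were not summed, among them RPS26, RPL12, RPL10 and RPS15. RPS27 and RPS9, the latter with 33.0% of its words shared, may not hold all reads of their genes, and how much shared sequence or the annotation bears on their low levels and fold changes was not tested.

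Under the authors' factors, the mean level of the set differed more between libraries of 1 group than between the treatments. The mean of log2(normalized count + 1) over the 81 genes was 12.284, 12.164 and 12.150 in DMSO replicates 1 to 3 and 12.225, 12.173 and 12.236 in CA4 replicates 1 to 3. The groups overlapped, and their difference of 0.012 was smaller than the pooled SD of 0.057. DMSO replicate 1 was the highest of the 6 libraries in 48 of the 81 genes, and DMSO replicate 3 the lowest in 35. The median gene lay 0.079 above its own mean in DMSO replicate 1 and 0.059 below it in DMSO replicate 3. The median within-group SD of a gene was 0.067, against 0.128 for tested genes averaging at least 1000, and it dropped to 0.042 once each library's mean over the set was subtracted.

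**Figure D4:**
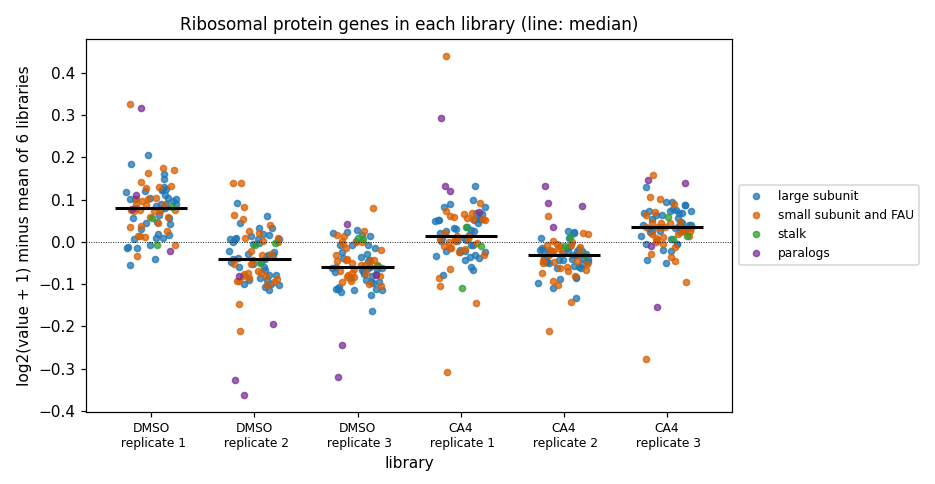
Deviation of each of the 81 genes from its own mean over the 6 libraries, on the log2(normalized count + 1) scale, by library; lines are medians and colours mark the gene groups. DMSO replicate 1 sits highest, with a median of 0.079, and DMSO replicate 3 lowest, with a median of -0.059.

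The summed proliferation markers were highest in DMSO replicate 1, at 11304, and next in CA4 replicate 1, at 9126. Their sum was lowest in CA4 replicate 3, at 2926, the CA4 library with the highest mean over the ribosomal protein genes (12.236 under the authors' factors). The part of these markers in the level of the ribosomal protein genes was not tested. Without DMSO replicate 1 the median log2 fold change was 0.049, with 66 of 81 genes above 0. Without DMSO replicate 2 or 3 it was -0.016 and -0.012, with 31 of 81 above 0 in each. None of the 81 genes was called in these 3 fits, which called 7.14%, 0.718% and 0.582% of all tested genes without DMSO replicate 1, 2 and 3.

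Whether the median of the set lay above or below 0 depended on the scaling. Under the authors' factors normalized counts summed over all genes to 20557461 ± 241239 in the DMSO libraries (SD, n = 3), and to 22055163 ± 369437 in the CA4 libraries (SD, n = 3), 7.29% higher. The ribosomal protein genes gave 525622 ± 24041 (SD, n = 3) in the DMSO libraries and 528339 ± 12569 (SD, n = 3) in the CA4 libraries, 0.517% higher. Their share of reads was 2.71%, 2.53% and 2.43% in the DMSO libraries and 2.44%, 2.35% and 2.40% in the CA4 libraries, a difference of -0.162 percentage points that fell to -0.085 without DMSO replicate 1. The highest CA4 share lay just above the lowest DMSO share. FN1, which encodes fibronectin, made up 11.96% of the difference in the total; FN1 itself lay higher in CA4 without overlap but did not pass the test (0.24, limma adjusted p = 0.307).

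Bringing all libraries to 1 common total (called the same total here) shifts log2 fold changes down by about 0.10, the log2 ratio of the 2 totals, and by less for genes with few reads because of the pseudocount. The median over the ribosomal protein genes was then -0.095, with 6 of 81 above 0 (FAU, RPL3, RPL22L1, RPL26L1, RPL7L1 and RPS27), and the median over all tested genes was -0.11. The mean over the 81 genes then differed by -0.089, more than its pooled SD of 0.065, with overlapping groups. Between libraries of the same number the median gene differed by -0.16, -0.099 and -0.018 for numbers 1 to 3. Under the authors' factors these values were -0.068, -0.00021 and 0.091. Over the 3924 tested genes that averaged at least 1000, to which 76 of the 81 belong, the median was 0.039 under the authors' factors and -0.063 with the same total. Under both scalings the median of the ribosomal protein genes lay just above that of all tested genes and below that of these abundant genes. Again 0 of 81 were called, against 5.76% of all tested genes, of which 279 were higher and 523 lower. Leaving the ribosomal protein genes themselves out of the total gave -0.098, the same 75th percentile -0.026 with 26 of 81 above 0, and TMM factors -0.00022 with 39 above 0.

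Quantile normalization, which gives all libraries the same distribution of values, moved these genes apart from the median gene: their median was -0.087 with 9 of 81 above 0, while the median over all tested genes was -0.010. Over the 3924 genes with a mean of at least 1000 it was -0.028. The mean over the 81 genes was then lower in all 3 CA4 libraries than in any DMSO library, by 0.074, against a pooled SD of 0.048. Of the 81 genes 0 were called, against 4.39% of all tested genes. By rank within a library, the median ribosomal protein gene stood at place 509 to 537 among the tested genes in DMSO and at place 565 to 594 in CA4, where a higher place is a lower level. These ranges did not overlap; 36 to 40 of the genes were among the top 500 in DMSO and 35 to 36 in CA4.

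**Figure D5:**
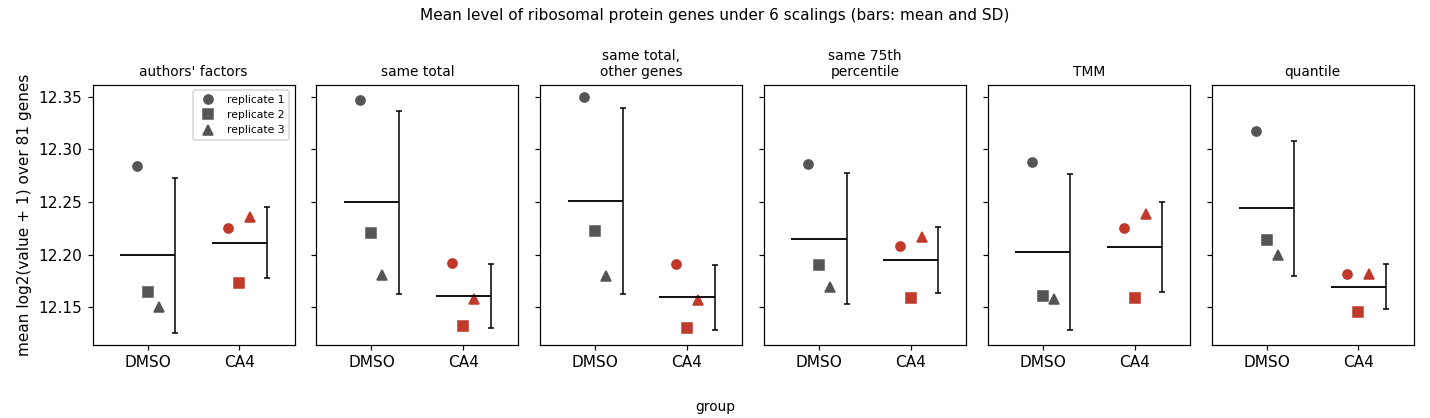
Mean of log2(value + 1) over the 81 genes in each library under 6 scalings; symbols give the replicate number, horizontal lines the group mean and vertical bars the SD (n = 3). Under the authors' factors the groups differ by 0.012 and overlap; under the same total they differ by -0.089 and overlap; under quantile normalization they differ by -0.074 and do not overlap.

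Other mRNAs known to carry a 5′ TOP tract, among them the elongation factors and TPT1, had no called gene either, where 4.94% of all tested genes were called. In a list of this size 0 is near that share. Of 20 such genes 13 had a fold change above 0 and 7 below, with a median of 0.013, or -0.088 with the same total. RACK1, a scaffold protein of the small subunit, gave 0.010. EEF2, the translocation factor, had 46928, 49739 and 48331 normalized counts in DMSO and 52906, 51944 and 57145 in CA4, without overlap (0.16, SE 0.080, limma adjusted p = 0.284). EIF3F gave 0.31 (limma adjusted p = 0.19) and NPM1 0.15.

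Genes that build ribosomes and start translation had higher medians than the ribosomal protein genes. Among 29 tested genes of ribosome assembly and RNA polymerase I, 27 had a fold change above 0, with a median of 0.33. In the main limma fit 0 were called, where 4.94% of all tested genes were called. At an unadjusted p under 0.05 there were 17 of 29, or 58.6%, against 23% of all tested genes; with the same total there were 7, or 24.1%, against 25.4%. NOP16, a nucleolar protein, had 278, 213 and 257 normalized counts in DMSO and 409, 324 and 362 in CA4 (0.55, SE 0.15, limma adjusted p = 0.0845). NOP2, a methyltransferase of ribosomal RNA, gave 0.53 (limma adjusted p = 0.0853). UBTF, the activator of RNA polymerase I, went the other way, with 3301, 3555 and 3723 in DMSO and 2577, 2669 and 2955 in CA4 (-0.37, SE 0.087, limma adjusted p = 0.0564), and passed the test with the same total (-0.47, limma adjusted p = 0.0245). The median of the list with the same total was 0.23, with 24 of 29 above 0. With the replicate number as a further term in limma, under the authors' factors, 14 of the 29 were called higher and 1 lower. That fit called 17.2% of all tested genes.

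All 21 initiation factors had a fold change above 0, with a median of 0.22, and 2 of them (against 4.94% of all tested genes) rose past the test. EIF2S2, the beta subunit of the factor that brings the initiator tRNA, had 1660, 1487 and 1647 normalized counts in DMSO and 2363, 2118 and 2954 in CA4 (0.62, SE 0.13, limma adjusted p = 0.0411). EIF1, which guards start codon choice, had 6980, 6010 and 6568 in DMSO and 9377, 8387 and 11293 in CA4 (0.56, SE 0.12, limma adjusted p = 0.0436). With the same total the list median was 0.12, with 16 of 21 above 0, and neither gene passed (limma adjusted p = 0.0532 and 0.0596).

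Of 17 tested genes of growth signalling and of the control of 5′ TOP mRNAs, 4 rose and 1 fell, where 4.94% of all tested genes were called. LARP1 had 4140, 3921 and 4214 normalized counts in DMSO and 5260, 5465 and 5193 in CA4 (0.38, SE 0.070, limma adjusted p = 0.0296), and its relative LARP1B gave 0.72 (limma adjusted p = 0.0414). RHEB, the GTPase that switches on mTORC1, had 2030, 1746 and 1609 in DMSO and 2478, 2559 and 2746 in CA4 (0.54, limma adjusted p = 0.0334). MYC, a transcription factor that raises ribosome production, had 1091, 797 and 680 in DMSO and 1817, 1323 and 1470 in CA4 (0.86, limma adjusted p = 0.0487). DDIT4, an inhibitor of mTORC1, had 1321, 3136 and 1516 in DMSO and 281, 633 and 612 in CA4 (-1.95, limma adjusted p = 0.0403). With the same total DDIT4 alone of the 5 passed (-2.05, limma adjusted p = 0.0333), while LARP1 gave 0.27 (0.0706), LARP1B 0.62 (0.0542), RHEB 0.44 (0.0577) and MYC 0.76 (0.0676). Of the 7 genes called in these lists, 6 were called by edgeR, 7 by DESeq2 and 3 under quantile normalization (DDIT4, LARP1B and RHEB). In the fits without DMSO replicate 2, DMSO replicate 3, CA4 replicate 1 or CA4 replicate 3, 0 of the 7 were called. These fits also called fewer of all tested genes, 0.718% and 0.582% without DMSO replicates 2 and 3. Of the 7, 3 were called without CA4 replicate 2 (EIF1, EIF2S2 and LARP1B) and 6 without DMSO replicate 1, all but EIF2S2.

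Of the lists for comparison, the mitochondrial ribosome, which is encoded by separate genes, had a median of 0.031, with 46 of 76 above 0, and nuclear subunits of the respiratory chain -0.047, with 18 of 69 above 0. The proteasome core had -0.037, with 6 of 14 above 0, and 13 mitochondrially encoded genes 0.064. With the same total these medians were -0.070, -0.15, -0.14 and -0.037. In each of these 4 lists 0 genes were called under either scaling, where 4.94% of all tested genes were called under the authors' factors and 5.76% with the same total. The differences between lists, and between a list and the ribosomal protein genes, were not tested. Of the host genes of small nucleolar RNAs only SNHG32 was analysed here, at 1813, 1651 and 1553 normalized counts in DMSO and 1974, 1864 and 1917 in CA4 (0.20, limma adjusted p = 0.222).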

How the data were processed

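The deposited table holds 1 signal column per library, in which the authors divided read counts by a scaling factor of the library. Per the submitters' processing notes, Trim Galore 0.6.6, FastQC 0.12.1, Salmon 1.8.0, STAR 2.7.9a and DESeq2 1.44.0 were used with GRCh38; their order, the annotation release and the use of strand are not given in the sources used here. Every column's values (100%) were multiples of that library's value of 1 read, within a tolerance of 0.01, which recovered reads that may be rounded estimates.

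Symbols came from the supplied gene names, else from GENCODE 29; 3068 IDs without a name held 1.61% to 1.79% of the reads. Genes with a mean of at least 10 were tested with limma 3.58.1 (R 4.3.3) on log2(normalized count + 1), treatment as the only term, mean trend, two-sided, Benjamini-Hochberg adjustment over 13928 genes, threshold 0.05. The pseudocount of 1 understates changes of low genes. edgeR 4.0.16 and DESeq2 1.42.0 ran on the recovered reads as alternatives, beside other pseudocounts, filters, scalings, variance priors, the replicate block and leaving out each library. Scripts were tested on simulated data.

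Genes named are the 8 highest and 8 lowest fold changes, the 5 most abundant, the stalk genes, the fusions, RPS6, RPSA and the paralogs with their partners; of each other list, up to 3 with the smallest adjusted p. RPS21, RPL11, RPL23A, RPS10, RPS26, RPL12, RPS15, RACK1, LARP1B, MYC, FN1, the markers CRX, PMEL, SERPINF1, DCT, TTR, MKI67, CDH1, EPCAM, VIM and COL1A2, and the rows that share reads were added after their values were seen. The genes and the lists were chosen with earlier results of these data known.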

Additional observations from a re-analysis of the deposited data

How the results depend on the processing

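The counts of 0 ribosomal protein genes higher and 0 lower held under all alternatives run except 1 that was added after the data were seen, the replicate block with the same total. There 2 of 81 were lower, RPS9 (-0.39, limma adjusted p = 0.0351; its row may not hold all its reads) and RPS12 (-0.20, limma adjusted p = 0.048), where 14.4% of all tested genes were called lower. The median of 0.0062 became -0.095 with the same total, with or without the block, -0.098 with the same total of all other genes and -0.087 under quantile normalization. Leaving out 1 library at a time gave medians of -0.016 to 0.049 and differences in the share of reads of -0.226 to -0.085 percentage points. The 688 tested genes past the threshold became 103 without the variance trend, 1613 in DESeq2, 2397 with the replicate block, 2916 with the block and the same total, and 81 (without DMSO replicate 3) to 994 (without DMSO replicate 1) with 1 library left out, among them 100 without DMSO replicate 2, 156 without CA4 replicate 1 and 150 without CA4 replicate 3; the cause was not tested. Of the 30 tested ribosomal protein genes that the naming rule takes, 12 changed sign with the same total, with the same total of other genes and under quantile normalization, 6 at the same 75th percentile, 3 with TMM, 2 in edgeR, 2 in DESeq2 and 1 to 7 with 1 library left out; none of them was called in these fits. Deviations of same-numbered libraries from their group means correlated at 0.202, 0.159 and 0.059 across all tested genes. Those of differently numbered libraries correlated at -0.214 to 0.074. Deviations within a group sum to 0, so these values are not independent. The last same-numbered value lay under the limit of 0.1, so the main test did not take the numbers as pairs. Whether they are pairs was not settled. Over the 81 ribosomal protein genes the same-numbered correlations were 0.521, 0.17 and 0.209, and the others -0.628 to 0.517. With the replicate block alone 0 of 81 were called, against 17.2% of all tested genes. Under it 14 genes of ribosome assembly were higher and 1 lower, 8 initiation factors were higher, 7 genes of growth signalling were higher and 2 lower, and TOP2A (limma adjusted p = 0.0211) and CCNB1 (0.0306) of the proliferation markers were lower; MITF (0.00375) and COL1A1 (0.012) were also called lower, and FN1 (0.0275) and KRT18 (0.038) higher, while OTX2 and CDH2 were called as before. Depth limits RPS27, RPL3L and RPL10L most.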
